A study of Mus musculus with 15 samples.

Results

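Conventional dendritic cells of type 1 (cDC1) sorted from mouse thymus were compared between mice in which cells that express CD11c lose the kinase LKB1 (KO) and wild-type mice (WT). The members were chosen by their labels as the 2 cDC1 KO and 2 cDC1 WT libraries, 4 of the 15 RNA sequencing libraries of the series, and all genes were read. The other libraries come from type 2 dendritic cells (cDC2; 3 KO and 2 WT) and plasmacytoid dendritic cells (pDC; 3 KO and 3 WT) of the same design. KO mice carried Itgax-cre and Stk11 fl/fl, so that Cre, driven by the gene of CD11c, removes part of Stk11, the gene of LKB1, in dendritic cells and any other cell that uses Itgax. WT mice are labelled only as WT. All mice were C57BL/6, of both sexes, and received a subcutaneous B16 melanoma that secretes Flt3L, the growth factor that expands dendritic cells, at an age of 8 to 12 weeks. Thymi were taken 9 to 12 days later. The cDC1 gate was CD8a+, CD11c+ and MHC class II+ after enrichment on CD11c beads. No group that carries Cre alone is among the 15 libraries, so an effect of the transgene and an effect of LKB1 loss cannot be told apart here.

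LKB1 phosphorylates and activates AMPK and the AMPK-related kinases, among them the salt-inducible kinases (SIK). AMPK restrains mTORC1 and anabolic growth when energy is short, and the SIKs keep the CRTC coactivators of CREB out of the nucleus. cDC1 depend on the transcription factors IRF8 and BATF3, take up dying cells and cross-present their antigens to CD8 T cells. In the thymus they stand beside other antigen-presenting cells that delete self-reactive thymocytes and support regulatory T cells.

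The 4 libraries held 4105082 (WT 1) to 7490137 (KO 1) counts and 12585 to 12678 detected genes at equal depth. Mitochondrial genes took 2.61% and 2.91% of counts in KO and 3.27% and 3.34% in WT. Levels are CPM values, in which each count is scaled by its library's total and TMM factor, in the order KO 1, KO 2, WT 1, WT 2. Differences are log2, KO minus WT. Their standard error was derived from the test, as the absolute difference divided by the square root of its F statistic. Library WT 1 stood apart in transcript composition: the Spearman correlation of its relative levels with transcript GC content was 0.168 across genes, against −0.115 to −0.00714 in the other three. With transcript length the correlation was −0.148 in WT 1 and 0.105 in KO 1. Over 10386 genes the difference between genotypes itself correlated with GC content at −0.139 and with transcript length at 0.0831. The part of this trend in the list medians below was not tested. The KO libraries correlated with each other at r = 0.97 across genes, the WT libraries at 0.953, and KO with WT libraries at 0.9497 to 0.9616, so that the genotypes were about as far apart as the WT libraries were from each other. The labels do not say that replicates came from separate mice, and p-values then measure only the spread between these samples, which may be technical. Y-linked Ddx3y was read at 125 to 241 CPM in all 4 libraries, so each held male cells.

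The sorted cells carried the markers of their label. Naaa, a lysosomal lipid hydrolase abundant in cDC1, was read at 1947 and 1659 CPM in KO and 2419 and 2475 CPM in WT. Clec9a, the receptor for actin of dead cells, was read at 260 and 188 CPM in KO and 299 and 345 CPM in WT. Cd8a, the gate's own gene, was read at 145 and 116 CPM in KO and 264 and 256 CPM in WT. The levels of Naaa and Clec9a were lower in both KO libraries than in either WT library, without passing the test (−0.44 ± 0.24 and −0.52 ± 0.30, adjusted p = 0.693 and 0.699). Stk11 itself was read at 31.5 and 18.6 CPM in KO and at 36.4 and 55.6 CPM in WT (−0.88 ± 0.35, adjusted p = 0.566). Since 3′ tags were read and the position of the deletion is not in the labels, this level checks nothing about the deletion.

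Of 10409 genes tested, 2 passed the threshold of an adjusted p of 0.05 (0.0192%), Pde3b and Cox6a2, and both rose in KO. Pde3b, a phosphodiesterase that breaks down cyclic AMP, lies at chr7:114415281-114539251 (GRCm38, plus strand, protein coding). It was read at 53.1 and 64.0 CPM in KO against 9.58 and 8.78 CPM in WT. Every KO library was above every WT library, and the replicates of each genotype lay close together. The level in KO was 6.38-fold that in WT (58.6 ± 7.71 against 9.18 ± 0.567 CPM, SD, n = 2 each; log2 2.67 ± 0.31, adjusted p = 0.0431).

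Cox6a2 encodes the muscle isoform of a cytochrome c oxidase subunit and is also a gene of pDC. It lies at chr7:128205435-128206387 (minus strand, protein coding) and had 252 and 231 counts in KO against 5 and 0 in WT. In CPM these were 33.9 and 34.1 in KO and 1.20 and 0 in WT, 61.1-fold higher in KO (log2 5.93 ± 0.69, adjusted p = 0.0431). The gene lies within the span of Itgad on the opposite strand. Itgad had 10 and 26 counts in KO against 1 and 8 in WT, and whether the authors' counting used the strand is not given in the sources used here. Both calls ended without KO 1 (adjusted p = 0.416 each), without any change of direction, and the log2 difference of Cox6a2 was 10.79 without WT 1 and 4.81 without WT 2. Limma voom (0.142 each) and a filter at 10 CPM (0.0840 each) also ended both calls, DESeq2 that of Cox6a2 (0.0798), and the 15-library fit (0.133) and offsets for transcript length and GC content (0.0551) that of Pde3b. The 15-library fit called 3 of 11746 genes (0.0255%), Cox6a2, Plcb1 and Itgam, with 3.83% of genes at an unadjusted p under 0.05.

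**Figure D1:**
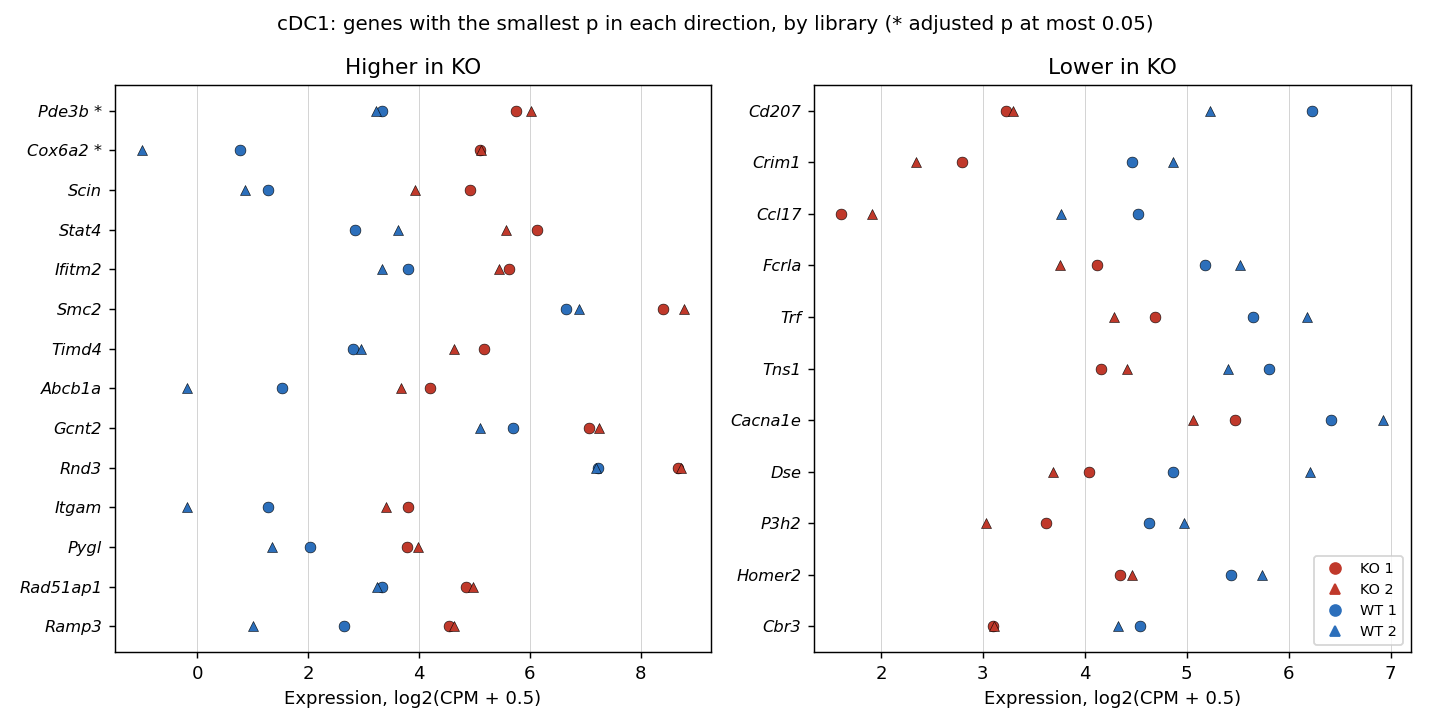
Expression of 14 genes higher and 11 genes lower in KO among those with the smallest p, as log2(CPM + 0.5) on the x axis; each point is 1 library, red for KO and blue for WT. In every gene drawn both KO libraries lie on one side of both WT libraries. This was a condition of the choice for all genes but Pde3b and Cox6a2, the genes past the threshold, which the asterisk marks.

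No gene passed with a lower level in KO by edgeR. At an unadjusted p under 0.05 there were 849 genes (8.16%), 572 higher (5.5%) and 277 lower (2.66%). At the same unadjusted level DESeq2 had 723 genes and limma voom 822. At an adjusted p of 0.05 DESeq2 called 42 higher and 8 lower and limma voom 0 and 0. The genes next to the threshold are given as values. Scin, an actin-severing protein controlled by calcium, was read at 29.8 and 14.6 CPM in KO and 1.92 and 1.31 CPM in WT (3.79 ± 0.52, adjusted p = 0.107). Stat4, which transmits the interleukin-12 signal, was read at 69.2 and 47.0 CPM against 6.70 and 11.8 (2.64 ± 0.37, adjusted p = 0.107). For both genes the lowest KO library was well above the highest WT library, though genes whose libraries overlap were passed over in this choice. Timd4, a receptor for phosphatidylserine on dying cells, was read at 35.6 and 24.4 CPM against 6.47 and 7.28 (2.12 ± 0.36, adjusted p = 0.160). Ifitm2, an interferon-induced membrane protein, was read at 48.5 and 43.0 CPM against 13.4 and 9.52 (2.00 ± 0.32, adjusted p = 0.149).

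Other genes of this kind act on the cytoskeleton, membrane transport, sugar metabolism and chromosomes. Rnd3, a small GTPase that lowers actin contractility, was read at 409 and 424 CPM in KO against 150 and 146 in WT (1.49 ± 0.28, adjusted p = 0.239), with replicates close together in each genotype. Abcb1a, a drug efflux pump, had 133 and 83 counts in KO against 10 and 2 in WT. Ramp3, a partner of calcitonin-type receptors, stood at 22.9 and 24.2 CPM against 5.75 and 1.49, and Pygl, which releases glucose from glycogen, at 13.3 and 15.2 CPM against 3.59 and 2.05. Gcnt2, a glycosyltransferase that branches surface sugars, stood at 134 and 151 CPM against 51 and 33.8. Smc2, a core subunit of condensin, was read at 339 and 439 CPM against 101 and 117 (1.84 ± 0.30, adjusted p = 0.160), and Rad51ap1, a factor of recombination repair, at 28.4 and 30.7 CPM against 9.58 and 8.96.

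The genes with the smallest p on the lower side include surface molecules and secreted signals. Cd207, which encodes langerin, a lectin found on cDC1 and Langerhans cells, was read at 8.87 and 9.31 CPM in KO and at 74.5 and 37.0 CPM in WT (−2.61 ± 0.38, adjusted p = 0.120). The KO libraries lay close together while the WT libraries differed between themselves. Ccl17, a chemokine for CCR4, stood at 2.55 and 3.25 CPM against 22.5 and 13.1 (−2.60 ± 0.44, adjusted p = 0.160). Crim1, a membrane protein that binds bone morphogenetic proteins, stood at 6.45 and 4.58 CPM against 21.6 and 28.6 (−2.18 ± 0.37, adjusted p = 0.160). Behind them came Fcrla, the transferrin gene Trf, the focal adhesion gene Tns1, the calcium channel gene Cacna1e, the matrix enzyme genes Dse and P3h2, the scaffold gene Homer2 and Cbr3, with log2 differences of −1.85 (Dse) to −1.21 (Homer2) and adjusted p of 0.332 to 0.348.

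**Figure D2:**
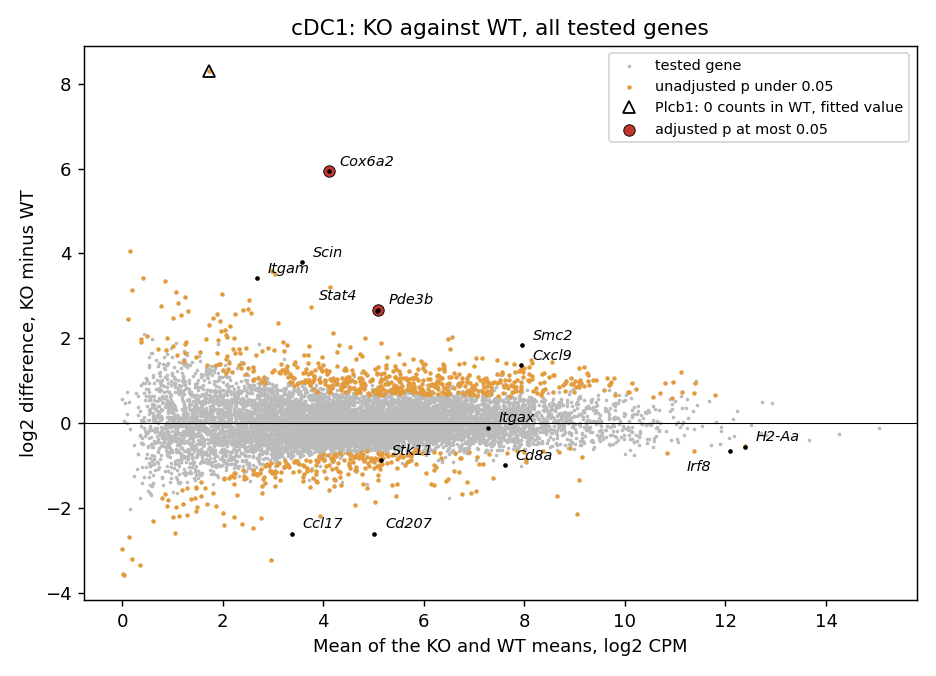
Difference between genotypes in cDC1 for each of the 10409 tested genes: log2 KO minus WT against the mean level in log2 CPM. Red points mark the 2 genes past the threshold, orange points an unadjusted p under 0.05, and the open triangle is Plcb1, whose fitted value has no meaning as a size because WT had 0 counts.

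Genes of cDC1 identity lay lower in KO without any of them passing. Of 24 tested markers, 5 had a positive difference, against 49.8% of all tested genes, and the median was −0.31, against −0.00288 over all genes. Both KO libraries lay below both WT libraries for 12 markers and above them for 1, against 18.8% and 19.2% of all genes. Cd8a had a difference of −0.996 ± 0.290 (adjusted p = 0.413). Irf8, the factor that cDC1 need to develop, was read at 3605 and 3119 CPM in KO and 5818 and 4853 CPM in WT (−0.67 ± 0.24, adjusted p = 0.529). Itgae, which encodes CD103, was read at 45.7 and 27.6 CPM against 78.5 and 57.5 (−0.89 ± 0.34, adjusted p = 0.548). Batf3 was read at 93.3 and 71.5 CPM against 86.0 and 69.7, with groups that overlapped, and Itgax at 138 and 160 CPM against 161 and 162. The median of the list was −0.10 without WT 2 and −0.47 without WT 1.

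Genes of thymocytes and T cells also lay lower in KO, without any passing. Of 20 tested, 2 had a positive difference and 12 lay below WT in both KO libraries, against 18.8% of all genes, with a median of −0.49. Thy1 was read at 9.14 and 7.10 CPM in KO against 24.2 and 17.6 in WT, and Cd8b1, the partner of Cd8a on thymocytes, at 16.7 and 10.2 CPM against 24.7 and 26.9. The recombinase gene Rag1 stood at 15.3 and 6.80 CPM against 25.6 and 19.2, while Cd3e overlapped between genotypes at 7.53 and 4.14 CPM against 6.70 and 8.03. The summed level of the list was 445 and 301 CPM in KO and 443 and 546 in WT. Cd8a belongs to thymocytes as well as cDC1, and the part of thymocyte RNA in its lower level was not tested. In bulk samples, fewer cells of a type and less RNA per cell cannot be told apart.

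Markers of the 2 other dendritic cell subsets lay higher on balance. For cDC2 markers 14 of 19 were positive (median 0.42), 6 lay above WT in both KO libraries, against 19.2% of all genes, and 4 were higher at an unadjusted p under 0.05, against 5.5% of all genes. Itgam, which encodes the CD11b used to sort cDC2, had 100 and 68 counts in KO against 8 and 2 in WT (13.4 and 10.1 CPM against 1.92 and 0.373; 3.42 ± 0.64, adjusted p = 0.239). Its difference was 4.90 without WT 1 and 2.61 without WT 2. Sirpa, which encodes an inhibitory surface receptor typical of cDC2, stood at 13.8 and 14.3 CPM against 5.51 and 7.66 (1.09 ± 0.37, adjusted p = 0.496). The lymphotoxin gene Ltb stood at 21.6 and 7.39 CPM against 3.35 and 4.29, and Cd7 at 30.8 and 31.0 against 22.3 and 7.28. A negative difference was found for 5 cDC2 markers, among them Clec12a, at 228 and 226 CPM against 300 and 248. Mgl2, another of the 5, overlapped at 19.4 and 22.9 CPM against 44.5 and 19.0. For pDC markers 15 of 21 were positive (median 0.29), 8 of them above WT in both KO libraries, against the same 19.2%, and Atp1b1, a sodium pump subunit, stood at 16.5 and 15.2 CPM against 6.47 and 5.23. The cDC2 median was 0.12 without WT 2 and 0.87 without WT 1.

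The level of subset markers in cDC1 is also given as a percentage of the level in the subset itself. It was taken within each genotype, on the scale of all 15 libraries. Cox6a2 and Itgam were named for their values in these same cDC1 libraries, so a high rank among the markers was largely fixed by that choice. The part of other dendritic cells in their values was not tested. Cox6a2 in cDC1 reached 3.22% of the pDC level in KO (33.3 ± 0.512 CPM in cDC1, n = 2, and 1034 ± 176 in pDC, n = 3) and 0.153% in WT. The pDC level of Cox6a2 in WT was 383 ± 97.1 CPM (n = 3), so the base of the percentage also differed between genotypes. Over the 20 pDC markers read at 100 CPM or more in WT pDC, this percentage was higher in KO for 15 and lower for 5, with a median ratio of KO to WT of 1.27. Cox6a2 had a ratio of 21, Mctp2, a membrane protein with calcium-binding domains, 5.22 (0.469% and 0.0899%), and Atp1b1 3.13 (1.46% and 0.466%). The percentage for Siglech, the lectin used to sort pDC, was 0.925% in KO and 0.569% in WT. It was 0.608% and 0.961% for Ly6d, 2.22% and 2.23% for the chemokine receptor gene Ccr9, 1.05% and 0.967% for Pacsin1, and 5.22% and 2.29% for the receptor gene Klra17. Per library, Siglech in cDC1 stood at 137 and 242 CPM in KO and 157 and 85.3 in WT, with groups that overlapped. Itgam in cDC1 reached 5.45% of its cDC2 level in KO and 1.08% in WT, a ratio of 5.05. That cDC2 level was 211 CPM in KO and 103 CPM in WT. Of the 8 cDC2 markers at that level in WT cDC2, 6 were higher in KO and 2 lower (median ratio 1.27). Tnfaip3, a brake on NF-kB, reached 88.1% and 47.1%, the fractalkine receptor gene Cx3cr1 20.1% and 12.5%, Mgl2 18.5% and 16.4%, and Cd209a 15.3% and 20.2%.

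Cox6a2 and Itgam are also neighbours of Itgax, whose regulatory sequence drives the Cre. Within 300 kb of Itgax 24 genes are listed and 16 were tested, 8 with a positive difference and a median of 0.02. The labels do not say where the transgene lies, and its part in these values cannot be told apart from that of LKB1 loss. Itgam ends 11.1 kb before Itgax and Cox6a2 lies 54.8 kb behind it. Armc5, 86.7 kb behind, was the only other tested gene of the window with an unadjusted p under 0.05, at 41.0 and 39.3 CPM in KO against 22.5 and 24.8 in WT (0.76 ± 0.28, adjusted p = 0.529). Itgax itself had a difference of −0.11 ± 0.28 (adjusted p = 0.958). Gm49368, which overlaps Itgam on the same strand, had 13 and 25 counts in KO against 9 and 4 in WT, so that some reads counted for one may belong to the other. Within 300 kb of Stk11, 30 genes were tested and none had an unadjusted p under 0.05.

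**Figure D3:**
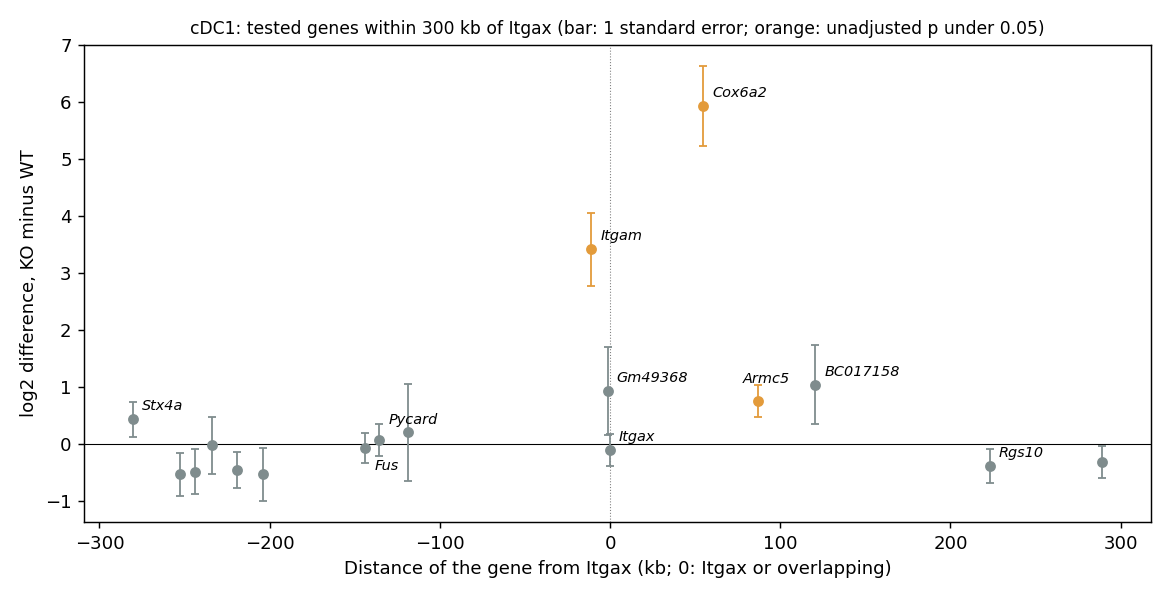
log2 difference, KO minus WT, with 1 standard error for the tested genes within 300 kb of Itgax, by their distance from Itgax in kb. Cox6a2 (5.93) and Itgam (3.42) stand above the other genes of the window, and Itgax itself lies at −0.11.

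In the pathways downstream of LKB1, no gene of 20 tested members of the LKB1, AMPK and related kinase list passed. Its median was 0.00, 10 members were positive, and Stk11 alone had an unadjusted p under 0.05. The AMPK subunit gene Prkaa1 was read at 13 and 9.90 CPM in KO against 8.14 and 14.8 in WT, and Sik1 at 119 and 115 CPM against 173 and 150. Of 23 targets of CREB and CRTC tested, 11 were positive (median −0.04) and 3 had an unadjusted p under 0.05, all higher, against 5.5% of all genes. Both KO libraries lay above both WT libraries for 6 of the 23 and below them for 7, against 19.2% and 18.8% of all genes. Fosb, an immediate early factor, stood at 2811 and 2459 CPM in KO against 1033 and 1654 in WT (0.97 ± 0.29, adjusted p = 0.421). Crem, a CREB relative whose short form represses the same sites, stood at 13.7 and 10.3 CPM against 7.66 and 2.99. The growth factor gene Areg, read at a low level, stood at 2.96 and 5.47 CPM against 1.44 and 0. The 27 tested genes of mTORC1 and its brake TSC had a median of −0.05 and none with an unadjusted p under 0.05.

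Phospholipase C genes turn G protein signals into calcium release and protein kinase C activity. Plcb1 had 51 and 43 counts in KO and 0 and 0 in WT, which puts it at least 21.0-fold higher against a floor of 3 counts over the group (adjusted p = 0.126). Its neighbour Plcb4, 183.8 kb away, was read at 132 and 106 CPM in KO against 36.9 and 85.9 in WT (0.95 ± 0.40, adjusted p = 0.584). Of the 30 genes tested in the phospholipase C and calcium list 16 were positive (median 0.06). On the lower side were Orai3, a calcium entry channel, at 16.3 and 16.6 CPM against 36.9 and 30.3, and Prkcd, protein kinase C delta, at 337 and 290 CPM against 471 and 542. The floor covers counting error only, since the reads carry no molecular identifiers.

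Energy metabolism lists gave no gene past the threshold other than Cox6a2. Oxidative phosphorylation had 20 of 55 positive genes (median −0.06), glycolysis and the hypoxia response 11 of 25 (−0.11), fatty acid oxidation 11 of 19 (0.04), and lysosome and autophagy 15 of 31 (0.00). In the list of cytochrome c oxidase isoforms that differ between tissues, Cox6a2 was the only positive gene of 9 tested. Its ubiquitous counterpart Cox6a1 was read at 195 and 259 CPM in KO against 357 and 263 in WT, with all 4 values far above those of Cox6a2. In cholesterol and fatty acid synthesis 12 of 27 were positive. Idi1, an early enzyme of the sterol pathway, stood at 26.3 and 50.9 CPM against 16.5 and 16.4, and the desaturase gene Scd1 at 6.59 and 7.98 CPM against 3.11 and 2.80, while Sc5d, a late sterol enzyme, stood at 24.3 and 14.8 CPM against 37.6 and 35.1. For ribosomal protein genes 13 of 42 were positive (median −0.21) and 24 lay below WT in both KO libraries, against 18.8% of all genes.

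Cell cycle genes lay higher in KO with few exceptions and without any passing: 34 of 36 tested members were positive (median 0.34), 13 lay above WT in both KO libraries and 8 had an unadjusted p under 0.05. Of all tested genes 49.8% were positive, 19.2% lay above in this way and 5.5% were higher at that p. Rrm1, a subunit of the enzyme that makes deoxynucleotides, was read at 110 and 129 CPM in KO against 51.5 and 45.0 in WT (1.31 ± 0.30, adjusted p = 0.332). Mki67, the proliferation antigen Ki-67, stood at 236 and 454 CPM against 123 and 160, and the topoisomerase gene Top2a at 393 and 579 against 257 and 199. Nusap1, a spindle protein, stood at 73.5 and 211 CPM against 26.3 and 45.0 (1.99 ± 0.49, adjusted p = 0.363), with a difference of 1.02 without KO 2 and 2.56 without KO 1. KO 2 was above KO 1 in each of these 4 genes, and no value of KO overlapped those of WT. They have the smallest p of the list, so a separation of this kind goes with the choice. Other members overlapped between genotypes with differences near 0, among them Ccnb1 (0.04), Cdc20 (0.05), Plk1 (0.08), Rrm2 (0.006) and Pcna (−0.19). The list's median was 0.10 without WT 2 and 0.66 without WT 1.

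Of the 29 cell cycle genes matched to a RefSeq promoter (250 bases before to 50 after the start, GRCm38.p6), 23 held the letters CCAAT on either strand (79.3%), against 41.1% of 27025 genes. The box is short and a match is a description, not a site. The promoter of Rrm1 is shown because this gene had the smallest p of the list, and capitals mark CCAAT, found 2 times in the 250 bases before the start (chr7:102441445-102441694, plus strand).
Rrm1: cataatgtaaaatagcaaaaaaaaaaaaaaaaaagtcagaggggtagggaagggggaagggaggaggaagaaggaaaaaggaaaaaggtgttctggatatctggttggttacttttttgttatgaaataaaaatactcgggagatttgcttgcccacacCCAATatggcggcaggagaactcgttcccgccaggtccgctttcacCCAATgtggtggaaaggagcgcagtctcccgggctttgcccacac

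Interferon-stimulated genes lay higher in KO in 25 of 29 tested members (median 0.20), 11 of them above WT in both KO libraries and 0 below, against 19.2% and 18.8% of all genes. Ifit1, which binds viral RNA without a proper cap, was read at 30.1 and 37.1 CPM in KO against 12.5 and 15.7 in WT (1.25 ± 0.31, adjusted p = 0.369). Among the sensors of viral RNA, Ddx58, which encodes RIG-I, stood at 16.9 and 18.8 CPM against 5.03 and 9.52, and Ifih1, which encodes MDA5, at 158 and 86.9 against 40.2 and 75.6. Zbp1, a sensor of Z-form nucleic acid, stood at 31.2 and 31.0 CPM against 16.3 and 18.7. Irf7, a factor that amplifies the interferon response, overlapped between genotypes at 170 and 235 CPM against 203 and 200. The median depended on the WT libraries, at −0.000809 without WT 1 and 0.66 without WT 2.

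The interferon-stimulated response element has a core of GAAA, any 2 bases and GAAA again, searched on both strands. It was present in 12 of the 22 list members with a RefSeq promoter (54.5%), against 3.99% of all genes. The promoter of Ifit1 is shown because it had the smallest p of the list. Capitals mark the core, found 2 times in reverse in the 250 bases before the start (chr19:34640639-34640888, plus strand, GRCm38.p6).
Ifit1: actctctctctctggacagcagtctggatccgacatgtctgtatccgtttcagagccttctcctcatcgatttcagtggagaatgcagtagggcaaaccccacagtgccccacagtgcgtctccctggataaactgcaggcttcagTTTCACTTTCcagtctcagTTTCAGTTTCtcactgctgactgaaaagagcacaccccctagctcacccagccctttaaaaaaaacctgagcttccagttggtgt

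Antigen presentation genes went both ways in each class. Of 22 tested class II genes 10 were positive (median −0.04), and of 23 in the class I and cross-presentation list 9 were (median −0.06). Both KO libraries lay above WT for 3 class II genes and below for 8. In the class I list they lay above for 7 and below for 1, against 19.2% and 18.8% of all genes. The MHC class II chains H2-Aa and H2-Ab1, which form the I-A molecule, were read at 4109 and 4571 CPM and at 4052 and 4651 CPM in KO, against 6360 and 6412 and against 6780 and 5959 in WT. Both genes lay lower in both KO libraries (−0.56 ± 0.23 and −0.55 ± 0.23, adjusted p = 0.570 and 0.586), and the cells had been gated on MHC class II protein. The other 20 tested genes of class II presentation had unadjusted p above 0.05. On the higher side of the class I list, Calr, the chaperone calreticulin, stood at 2446 and 3743 CPM in KO against 1461 and 1242 in WT (1.20 ± 0.28, adjusted p = 0.347). Its partner Pdia3 stood at 490 and 852 CPM against 314 and 427, and Cybb, the NADPH oxidase subunit that keeps endosomes less acidic, at 247 and 362 against 201 and 161. For Erap1, the peptide-trimming enzyme, WT 2 alone was high (61.6 and 42.0 CPM in KO, 46.5 and 285 in WT).

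Several heat-shock genes of the dissociation stress list lay higher in KO beside Calr, while other members of the list overlapped or lay lower. Dnaja1 stood at 304 and 216 CPM in KO against 77.8 and 108 in WT, Hspa1b at 290 and 377 against 107 and 175, and Hsph1 at 188 and 206 against 128 and 64.8. The heat-shock gene Dnajb1 overlapped at 57.7 and 99.6 CPM against 76.9 and 64.8. Egr1 lay lower at 194 and 209 CPM against 222 and 396, and Nr4a1 at 165 and 209 against 322 and 238. Over the list 15 of 25 genes were positive (median 0.17), against 49.8% of all genes. Both KO libraries lay above WT for 10 and below for 5, against 19.2% and 18.8%. The summed level of the list was 38483 and 34513 CPM in KO against 29134 and 27420 in WT. The part of tissue handling in the values of Calr and Fosb was not tested.

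Maturation genes, which dendritic cells switch on as they migrate and instruct T cells, had 17 of 25 positive members (median 0.37), against 49.8% of all genes. Both KO libraries lay above WT for 11 and below for 3, against 19.2% and 18.8%. At an unadjusted p under 0.05, 6 were higher and 3 lower, against 5.5% and 2.66%. Il12b, the p40 chain of interleukin-12, was read at 339 and 569 CPM in KO against 229 and 176 in WT (1.17 ± 0.33, adjusted p = 0.410). Serpinb9, an inhibitor of granzyme B, stood at 75.3 and 109 CPM against 42.6 and 27.3, Cd63 at 33.1 and 40.7 against 21.8 and 14.0, and Socs2 at 67.9 and 53.8 against 35.4 and 26.5. Ccr7, the receptor that guides mature dendritic cells, overlapped at 397 and 593 CPM against 543 and 164, and WT 2 was low (0.49 ± 0.48; −0.13 without WT 2). The same library was low for Cd274, which encodes PD-L1, at 51.1 and 56.5 CPM against 38.8 and 16.8. The costimulator Cd86 stood at 158 and 200 CPM against 262 and 214, and Cd40 at 37.0 and 51 against 35.4 and 34.7. Tnfsf4, which encodes OX40L, had 11 and 29 counts against 1 and 0 and was too low to be tested. Its ratio was 26.8 with an exact 95% counting interval of 4.55 to 1086.

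Chemokines and their receptors went both ways, with 7 of 19 tested genes positive, 3 higher and 6 lower at an unadjusted p under 0.05, against 5.5% and 2.66% of all genes. Cxcl9, a ligand of CXCR3, was read at 338 and 371 CPM in KO against 160 and 115 in WT (1.37 ± 0.30, adjusted p = 0.332), and Cxcl10, another ligand of that receptor, at 21.1 and 31.2 against 18.0 and 11.8. The ligands of CCR4, Ccl17 (above) and Ccl22, lay lower, Ccl22 at 28.4 and 38.1 CPM against 88.4 and 43.3. The inflammatory chemokine gene Ccl4 stood at 21.4 and 23.4 CPM against 56.5 and 39. Xcr1, the chemokine receptor that marks cDC1, overlapped at 886 and 407 CPM against 478 and 675. Among growth factor receptors, Flt3, the receptor of the expanding cytokine, stood at 241 and 212 CPM against 322 and 283 (−0.42 ± 0.28, adjusted p = 0.747), and 2 of 11 tested receptors were positive.

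**Figure D4:**
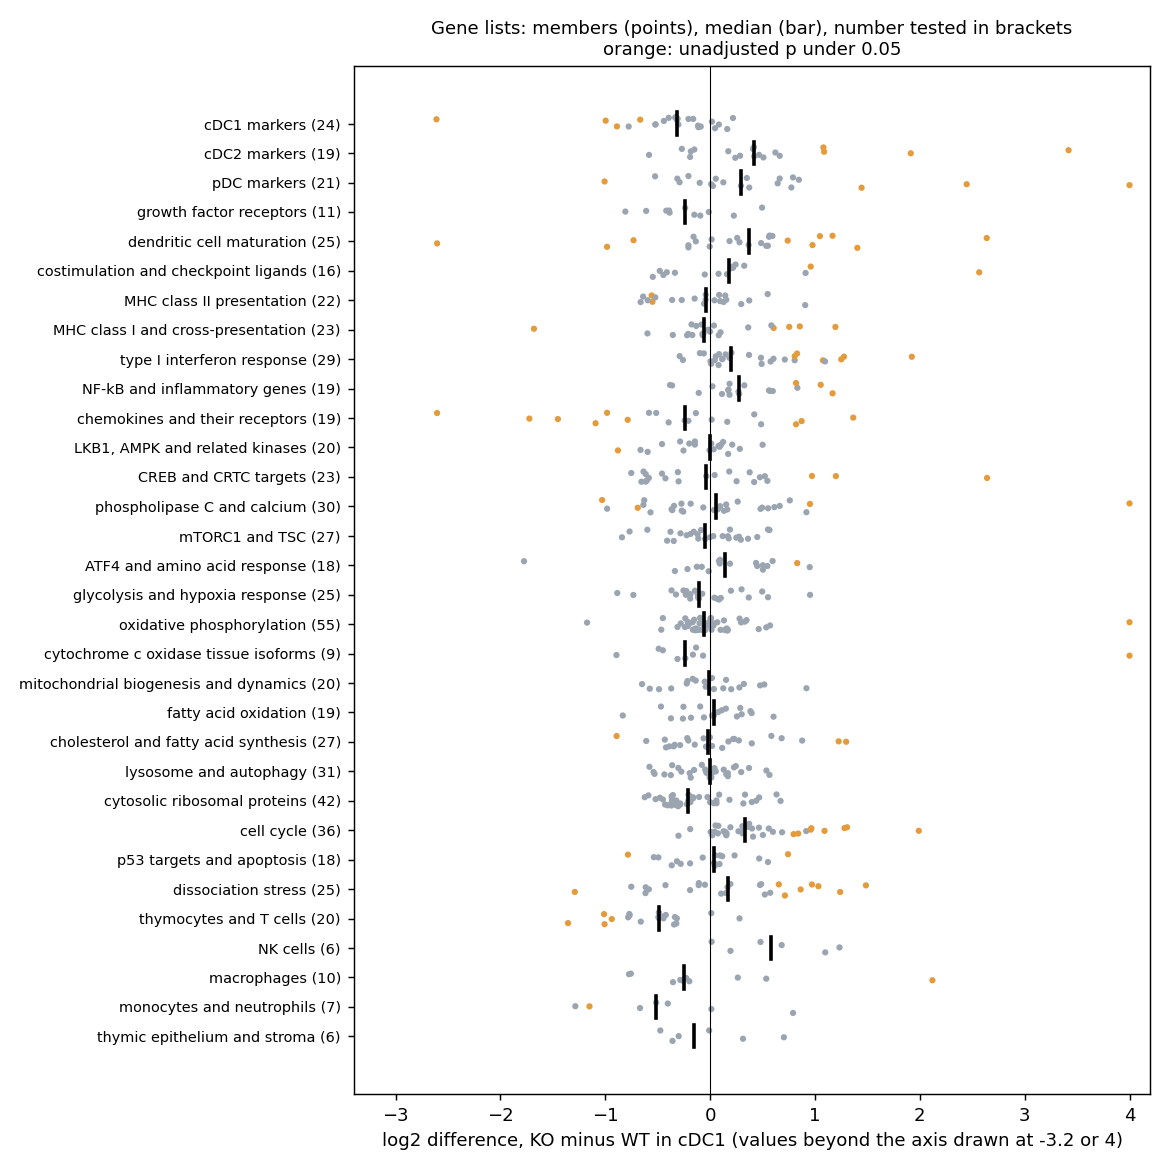
log2 difference, KO minus WT in cDC1, of every tested member of the gene lists with at least 6 tested members; the bar is the list's median and orange marks an unadjusted p under 0.05. Cell cycle, interferon and maturation genes lie mainly to the right (medians 0.34, 0.20 and 0.37), cDC1 markers and thymocyte genes to the left (−0.31 and −0.49).

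Lists of other cells differed in level, and that of monocytes and neutrophils was the highest. Melanoma genes Pmel and Dct had 0 counts in all 4 libraries, and the summed melanoma list stood at 2.24 to 4.44 CPM. The B cell list summed to 22.7 and 19.2 CPM in KO and 12.5 and 15.7 in WT, macrophages to 131 and 114 against 121 and 120, and NK cells to 242 and 243 against 195 and 204. All 6 tested NK cell genes were positive (median 0.58), led in level by Klrd1 at 49.5 and 37.8 CPM against 32.3 and 22.2. For monocytes and neutrophils the sum was 873 and 789 CPM against 798 and 1169, and Lyz2 stood at 79.7 and 49.8 CPM against 118 and 170. Timd4 and Itgam, named above, are also genes of macrophages and other myeloid cells, and the part of such cells in their values was not tested.

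The difference between the effect of the genotype in cDC1 and that in the other subsets was tested over all 15 libraries. Against cDC2 1 of 11746 genes passed (0.00851%), Mctp2, with 8.46% at an unadjusted p under 0.05, and against pDC 0 genes did by edgeR, with 970 at an unadjusted p under 0.05 (8.26%) and 91 called by DESeq2. Cox6a2 had an effect of 5.94 ± 0.71 in cDC1, 2.20 ± 0.50 in cDC2 and 1.43 ± 0.38 in pDC. The differences of 3.74 ± 0.89 and 4.51 ± 0.82 did not pass (adjusted p = 0.319 and 0.110). Pde3b had effects of 2.68 ± 0.50, 1.05 ± 0.44 and 0.34 ± 0.40, and those differences of 1.63 ± 0.64 and 2.34 ± 0.63 did not pass either (0.541 and 0.238). In cDC2, Pde3b was read at 49.9 ± 6.09 CPM in KO (n = 3) and 24.1 ± 2.61 in WT (n = 2), and in pDC at 8.06 ± 3.79 and 6.36 ± 3.62 (n = 3 each).

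Other genes pointed one way in all subsets or differed in sign, and none of these differences passed. Abcb1a had an effect of 3.50 ± 0.97 in cDC1, one of 2.89 ± 0.82 in cDC2 and one of 4.05 ± 1.16 in pDC. For Ramp3 the effects were 2.73 ± 1.07, 3.08 ± 1.02 and 4.34 ± 1.05. Those in pDC rest on 2 and 9 counts in WT. Smc2 had an effect of 1.84 ± 0.39 in cDC1, 0.20 ± 0.34 in cDC2 and −0.47 ± 0.31 in pDC (adjusted p of the differences 0.421 and 0.112). Rnd3 had effects of 1.5 ± 0.47, −0.62 ± 0.41 and −0.71 ± 0.37 (0.389 and 0.243). For H2-Aa they were −0.55 ± 0.25, 0.52 ± 0.23 and 0.26 ± 0.21 (0.465 and 0.515). Cd207 had 509 counts in cDC1 WT and 129 in cDC1 KO, against 20 and 0 in cDC2 KO and WT and 4 and 0 in pDC KO and WT. Itgam had effects of 3.43 in cDC1, 1.03 in cDC2 and 3.68 in pDC (adjusted p = 0.0431, 0.266 and 0.000112 in the same edgeR fit). In pDC it was read at 65.8 ± 2.70 CPM in KO and 5.14 ± 2.46 in WT (n = 3 each).

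**Figure D5:**
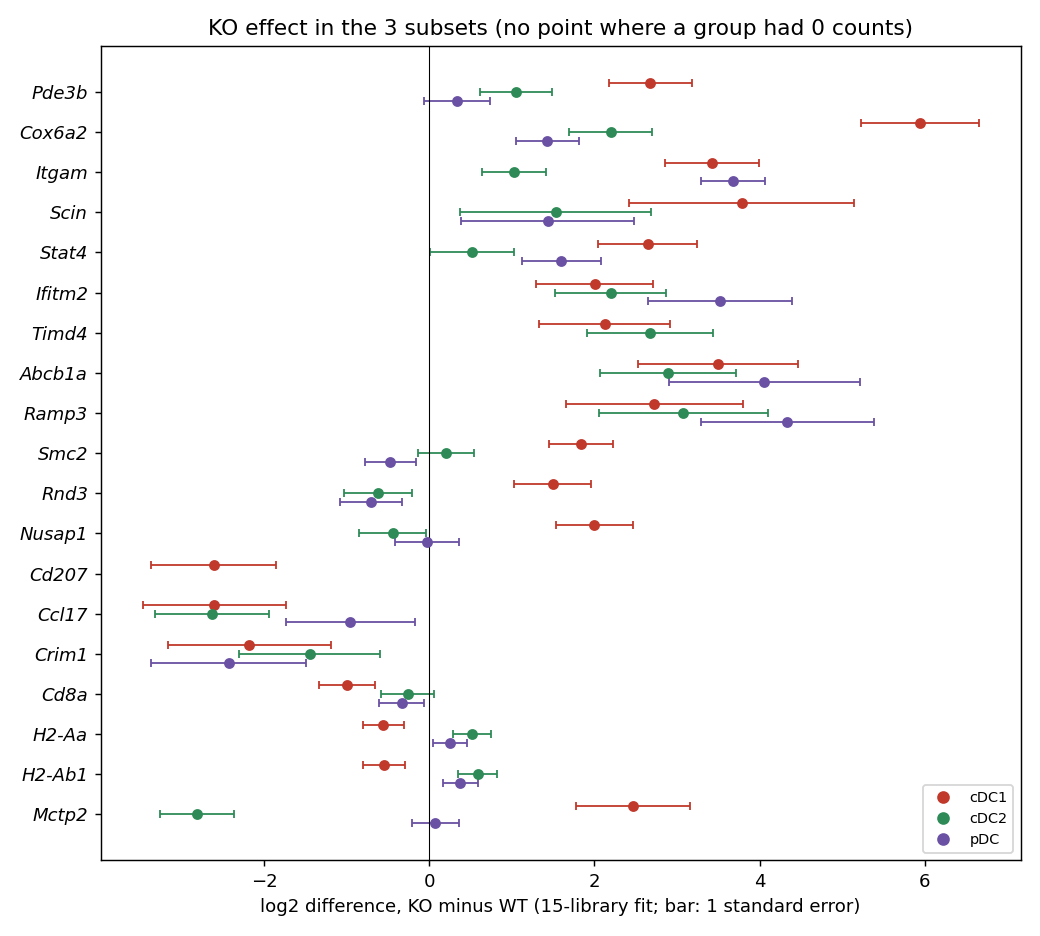
Effect of the genotype, log2 KO minus WT with 1 standard error from the 15-library fit, for 19 genes in cDC1 (red), cDC2 (green) and pDC (purple); no point is drawn where a group had 0 counts. Smc2, Rnd3 and Nusap1 lie right of 0 in cDC1 and near or left of it in the other subsets, while Abcb1a, Ramp3 and Ifitm2 lie right of 0 in all 3. In pDC WT these last genes had only 2, 9 and 6 counts.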

How the data were processed

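RNA was measured by sequencing of 3′ tags from barcoded oligo-dT primers, with 12 cycles of PCR and no molecular identifiers, per the labels' protocols. The authors deposited raw counts of reads per gene in 1 table, without normalization. STAR, HTSeq, DESeq2 and the build mm10 are named in the submitters' processing notes, without saying which counted the reads. The strand setting is not given in the sources used here. Of 22165 genes in the table, 21745 had a symbol and 7329 had no count in the 4 cDC1 libraries. Coordinates come from GENCODE M21 (GRCm38).

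From the 4 libraries, genes were kept by filterByExpr on both groups (10409 genes; the others held 0.162% of counts) and scaled by TMM factors (0.965 to 1.02). KO and WT were compared with edgeR 4.0.16 (quasi-likelihood test, robust spread, R 4.3.3), two-sided, with Benjamini-Hochberg adjustment over all tested genes and a threshold of 0.05. An exact permutation of 2 against 2 libraries could not reach that threshold. Differences of effects between subsets came from 1 fit over 15 libraries in 6 groups (11746 genes), and levels set across subsets are on its scale. The analysis was tested on simulated counts.

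There were 36 gene lists with 779 symbols, 774 of them in the table and 666 tested; lists are described by counts and medians, with no test of a list. The comparison and the lists were chosen with earlier results of these data known. Named genes are those past the threshold and 12 in each direction with the smallest p. The 12 were taken among genes not past the threshold, at 10 CPM or more in 1 group, whose KO and WT libraries did not overlap. Genes without an informative name were passed over. Added to these were up to 4 members of each list and a few fixed genes (Stk11, Plcb1, Ccr7, Tnfsf4 and the markers). Some genes of these lists are not reported here by name. Further members, neighbours and subset markers named with values were chosen after their values were seen. The same replicate numbers did not deviate together (correlation of −0.218 across genes), so the numbers were not used to pair samples. Counting error did not account for the differences between replicates (chi-square per degree of freedom 30.3 in KO and 27.9 in WT). Promoter sequences are from RefSeq (GRCm38.p6), and 10386 genes had a transcript length and GC content. Alternatives were RLE scaling, DESeq2 1.42.0, limma 3.58.1 (voom with sample weights), no filter, a filter at 10 CPM in 2 libraries, all 15 libraries, a threshold of 0.1, a spread estimated without the robust option, a block for the replicate number, and fits without each library. Offsets for GC content and transcript length, and a crossed replicate block, were chosen after seeing the data.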

Additional observations from a re-analysis of the deposited data

Results flagged for a closer look

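Mctp2, a calcium-binding membrane protein of which pDC express far more, differed in its response between subsets by a test of that difference. The effect of the genotype was 2.47 ± 0.69 in cDC1 and −2.81 ± 0.45 in cDC2, a difference of 5.28 ± 0.81 (edgeR's quasi-likelihood test over 15 libraries, adjusted p = 0.0472). The counts behind it are small: 14 and 12 in cDC1 KO against 2 and 1 in cDC1 WT, a ratio of 5.82 with an exact 95% counting interval of 1.78 to 30.0, and 16 in cDC2 KO against 47 in cDC2 WT. In pDC, Mctp2 stood at 382 ± 62.1 CPM in KO and 362 ± 88.9 in WT (n = 3 each). The level in cDC1 was 0.469% of the pDC level in KO and 0.0899% in WT. Without any 1 of the 4 cDC1 libraries, and with the replicate block, no gene passed this test.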

How the results depend on the processing

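Against 2 genes higher and 0 lower in KO, DESeq2 called 42 and 8, edgeR without a filter 109 and 37, and limma voom and the filter at 10 CPM 0 and 0. RLE scaling, the spread without robust estimation and a threshold of 0.1 each called the same 2 genes. The 15-library fit called 3 higher, Cox6a2 among them and Pde3b not. Offsets for length and GC content called 1 higher and 0 lower. Leaving out 1 library gave 0 to 87 higher and 0 to 56 lower: 0 and 0 without KO 1, 9 and 1 without KO 2, 72 and 56 without WT 1, and 87 and 22 without WT 2, where the lone library of a group is assumed to vary like the other group. With the replicate number as a block, 3 genes passed as higher (Scin, Pde3b and Cox6a2) and 1 as lower (Cd207). The crossed pairing, added after the data were seen because same-numbered libraries deviated in opposite directions (−0.218), called 30 and 8. For the difference of effects between cDC1 and cDC2, DESeq2 called 40 genes, the replicate block 0, and each fit without 1 cDC1 library 0 (range 0 to 0). Between cDC1 and pDC DESeq2 called 91. The cause of these shifts was not tested.

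Without 1 library, the list medians ran from −0.47 to −0.10 for cDC1 markers, 0.12 to 0.87 for cDC2 markers, 0.17 to 0.52 for pDC markers, −0.18 to −0.068 for MHC class II, −0.000809 to 0.66 for interferon, −0.52 to −0.070 for chemokines, 0.013 to 0.28 for dissociation stress, 0.10 to 0.66 for cell cycle, and −0.87 to −0.35 for thymocytes. In the other settings these medians moved by less than the spread between replicates. Of 49 single genes followed through the settings, Ccr7 alone changed sign (0.49 with all libraries, −0.13 without WT 2 and 1.59 without WT 1). The 26 genes past the threshold or chosen by smallest p did not overlap between genotypes. Their sign without any 1 library was therefore largely fixed in advance, and all kept it. Of them, 6 moved by over 1.5-fold: Cox6a2, Itgam, Scin (3.19 to 4.19), Abcb1a (2.65 to 5.26), Ramp3 (2.04 to 3.96) and Dse (−2.37 to −1.01). With 2 libraries per group, genes of a few counts per library carry the least precision.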
